A study of Mus musculus with 6 samples.

Results

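The genes described here are 36 chaperone and unfolded protein response genes, read in cells labelled as mouse CD4+ T cells. They are listed by name in 3 compartments: 12 of the cytosolic heat shock system, 4 mitochondrial chaperones and 20 genes of the endoplasmic reticulum. Of the 36, 33 were measured among 19937 genes, namely 9 cytosolic, 4 mitochondrial and all 20 of the endoplasmic reticulum. No probe set with a single symbol was found for Hspa1b, Hsp90ab1 or the heat shock factor gene Hsf1, and these 3 are not analysed here. By the labels, the cells came from the spleen of B6 mice. They had been activated as naive CD4+ T cells with antibodies to CD3 and CD28 for 2 days, then rested overnight. In the control group (4 arrays) the cells were coated for 20 min with anti-CD3, and in the other group (2 arrays) with anti-CD3 together with anti-ICOS, an antibody to the inducible costimulator of T cells. Bound antibody was cross-linked with goat anti-hamster antibody for 8 h, and total RNA was read on Affymetrix Mouse Gene 1.0 ST arrays. Every array therefore comes from cells given anti-CD3 a second time, and no array of cells without this second stimulus or with anti-ICOS alone was analysed here. The labels name the arrays as biological replicates, do not give the age of the mice and do not say whether animals were pooled. The p-values reflect only how these arrays vary, and the 2 arrays with anti-ICOS limit the precision.

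Chaperones hold unfolded proteins until they reach their shape, and in the cytosol the HSP70 and HSP90 families, helped by J-domain co-chaperones, are induced by the heat shock response. Proteins that enter the endoplasmic reticulum are folded there by other members of these families, by lectin chaperones and by disulfide isomerases. When unfolded protein builds up there, the sensors IRE1 (encoded by Ern1), ATF6 and PERK start the unfolded protein response: IRE1 splices Xbp1 mRNA, and the XBP1 and ATF6 proteins then induce chaperone and degradation genes. Activated lymphocytes are known to enlarge this system as they begin to secrete protein, and plasma cells depend on XBP1.

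Values are log2(intensity + 16) of a gene's brightest probe set, and a difference is the anti-ICOS group less the anti-CD3 group on that scale, with its SE from limma. Levels of different genes come from different probes and are not compared with each other. Over all 19937 genes anti-CD3 replicate 4 lay with the anti-ICOS arrays and not with its own group: its levels correlated at 0.996 with each anti-ICOS array and at 0.982 to 0.987 with anti-CD3 replicates 1 to 3, which correlated at 0.995 to 0.998 among themselves. It lay above all 3 of them in 34.5% and below in 42.5% of genes. All 33 genes were therefore also compared without replicate 4 and against replicate 4 alone, as the plot of differences shows, and the text gives these values for the genes the results turn on. Among markers of T cells, Cd3e, Cd3d and Cd4 read between 11.07 and 12.81 on all 6 arrays. The B cell genes Cd79a, Cd79b and Ms4a1 and the CD8 gene Cd8b1 also read between 11.36 and 12.70 on all 6 arrays. Whether other lymphocytes were present in the cultures was not tested. The summed intensity of 10 of 11 listed T cell markers was 35776 to 38279 on anti-CD3 replicates 1 to 3, 34439 on replicate 4 and 32420 to 33474 with anti-ICOS. For 19 of 20 cell cycle genes the same sum was 34476 to 37656 on anti-CD3 replicates 1 to 3, 19128 on replicate 4, and 17623 and 18826 with anti-ICOS. Markers of B cells and plasma cells, 13 of 14 measured and none at 0, summed to 17035 to 19494 on replicates 1 to 3, 22810 on replicate 4, and 22335 and 23545 with anti-ICOS. The 9 of 10 macrophage markers summed to 944 to 973, 1438, and 1443 and 2192 in the same order, and the 10 of 10 dendritic cell markers to 7367 to 8309, 6320, and 9088 and 9615. Most of the dendritic cell sum was Ccr7, which T cells express too; the other 9 summed to 985 to 1001, 1423, and 3647 and 3675. The 10 of 10 CD8 and NK cell markers summed to 8244 to 9047, 10255, and 9707 and 9949. Of the dendritic cell markers, Fscn1 rose by 2.49 ± 0.20 and Flt3 by 1.26 ± 0.087 with all 6 arrays (limma adjusted p = 0.00547 and 0.00321), and against replicate 4 alone both of these and Ccl22 rose (2.04, 1.16 and 1.28). Ccl22 differed by 2.05 ± 0.31 with all 6 arrays (adjusted p = 0.0746). No other marker on these 5 cell type lists passed in either comparison. Without replicate 4, 6 dendritic cell markers rose and Ccr7 fell, 8 B cell and plasma cell markers rose and 1 fell, 5 macrophage and 6 CD8 and NK cell markers rose, and 4 T cell markers fell, beside 17.1% of all genes that rose and 12.7% that fell. In such bulk RNA, fewer cells of a type and less RNA per cell cannot be told apart, and the part of these markers in the results below was not tested.

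None of the 33 measured genes passed the test with all 6 arrays (limma, Benjamini-Hochberg over all genes, threshold 0.05), while 54 of all 19937 genes did, 0.271%. The 20 genes of the endoplasmic reticulum nevertheless read mostly higher with anti-ICOS: 17 had a positive difference, against 42.3% of all genes, with a median of 0.22 beside -0.03 over all genes. In 11 of these 20 genes both anti-ICOS arrays exceeded the highest anti-CD3 array, and in none were both under the lowest. Over all genes the shares were 8.51% above and 14.7% below. The 9 cytosolic genes had a median difference of 0.05 and the 4 mitochondrial genes one of 0.06, and the groups overlapped in all 9 and in 3 of 4. At an unadjusted p under 0.05, 8 endoplasmic reticulum genes, 1 cytosolic gene and no mitochondrial gene were higher and none of the 33 was lower, where 6.24% of all genes were higher and 5.56% lower.

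Without anti-CD3 replicate 4, 13 of the 33 genes rose and none fell, and 10 of the 13 belonged to the endoplasmic reticulum: Ern1, Xbp1, Hspa5, Hyou1, Dnajb9, Dnajc3, Pdia4, Pdia6, Herpud1 and Sel1l. The other 3 were the cytosolic Hsph1 and Dnaja2 and the mitochondrial Hspa9. In that comparison 29.7% of all genes passed, 17.1% higher and 12.7% lower. The 10 of 20 endoplasmic reticulum genes thus lay above this background, and 2 of 9 cytosolic and 1 of 4 mitochondrial genes near it. The genes were listed with earlier results of these data known. Replicate 4 was left out after its place among the arrays was seen. The excess in the endoplasmic reticulum group therefore describes the listed genes and is not an independent test of the compartment. The choice of genes also limits the shares given with all arrays. Against replicate 4 alone none of the 33 passed, with 35 of all genes past the threshold (0.176%). With array quality weights, which count replicate 4 least, 22 of the 33 passed, 17 higher and 5 lower, where 47.2% of all genes passed. The weights of anti-CD3 replicates 1 to 4 were 4.53, 1.07, 0.38 and 0.15, so that replicate 1 carried most of the control group.

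**Figure D1:**
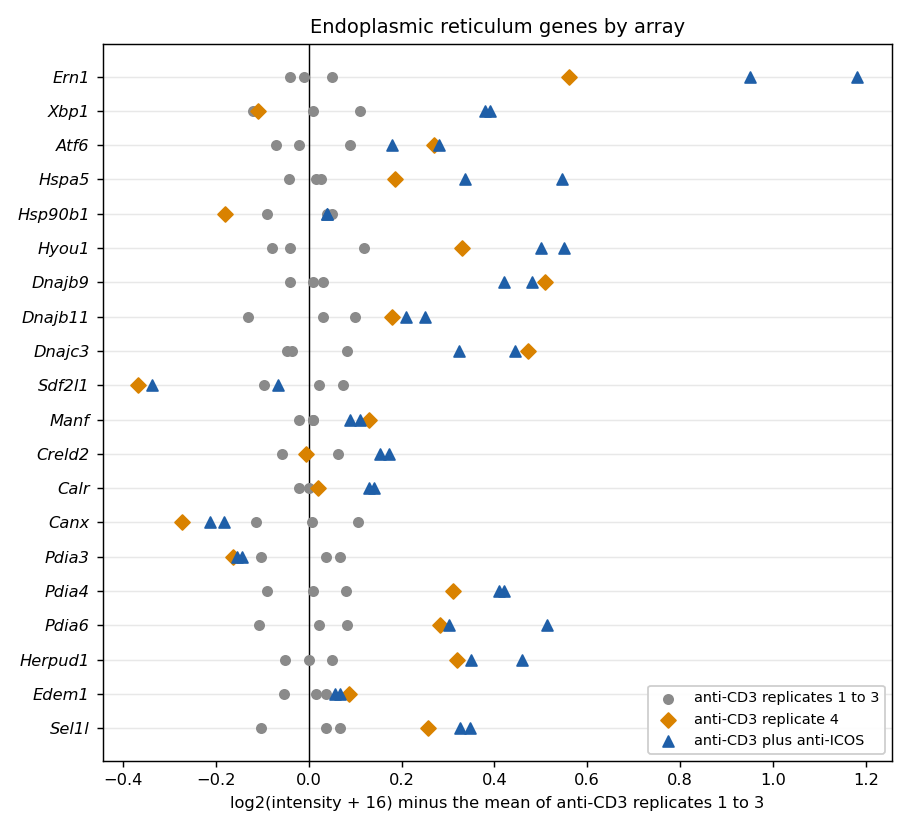
Each of the 20 endoplasmic reticulum genes on the 6 arrays, as log2(intensity + 16) minus the mean of anti-CD3 replicates 1 to 3 (grey circles); the diamond is anti-CD3 replicate 4 and the triangles are the 2 arrays with anti-ICOS. Ern1 lies farthest to the right, and in Xbp1, Creld2 and Calr replicate 4 stays with replicates 1 to 3 while both triangles lie to the right. Canx, Pdia3 and Sdf2l1 lie to the left, with anti-ICOS replicate 2 of Sdf2l1 at -0.06.

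The sensor gene Ern1 and the transcription factor gene Xbp1 had the smallest p of the 33. Ern1, whose product is the kinase and endonuclease that splices Xbp1 mRNA, read 7.79, 7.82, 7.88 and 8.39 on anti-CD3 replicates 1 to 4 and 9.01 and 8.78 with anti-ICOS. The groups did not overlap, and replicate 4 lay between replicates 1 to 3 and the anti-ICOS arrays. The difference was 0.92 ± 0.18 with an adjusted p of 0.174 (limma), a 1.89-fold change that did not pass the test. Without replicate 4 Ern1 rose by 1.06 ± 0.082 (limma adjusted p = 0.00018), and against replicate 4 alone the difference was 0.50 ± 0.11 (adjusted p = 0.294).

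Xbp1, which encodes the factor made active by that splicing, read 10.59, 10.69, 10.46 and 10.47 with anti-CD3 and 10.97 and 10.96 with anti-ICOS. Here replicate 4 lay within the range of the other anti-CD3 arrays, and both anti-ICOS arrays were above all 4. The difference was 0.41 ± 0.088 (limma adjusted p = 0.223). It was 0.39 without replicate 4, where it passed (adjusted p = 0.0109), and 0.49 against replicate 4 alone, where it did not (adjusted p = 0.284). The array reports the total Xbp1 signal of the probe set, and splicing was not read here. Atf6, the gene of the membrane-bound factor that is cut free under stress, read 9.22, 9.33, 9.17 and 9.51 with anti-CD3 and 9.52 and 9.42 with anti-ICOS. Its groups overlapped, since replicate 4 read as high as the anti-ICOS arrays, and it passed in none of the 3 comparisons (adjusted p = 0.462, 0.051 and 1).

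Of 13 measured B cell and plasma cell markers none passed with all 6 arrays or against replicate 4 alone, while 8 rose and 1 fell without replicate 4. The genes named here were chosen after their values were seen. Jchain, which encodes the joining chain of secreted antibodies, read 8.85, 8.87, 8.62 and 10.68 with anti-CD3 and 11.17 and 10.79 with anti-ICOS, a difference of 1.72 ± 0.55 that did not pass (limma adjusted p = 0.414). It rose by 2.20 ± 0.13 without replicate 4 (adjusted p = 6.6e-05) and differed by 0.30 against replicate 4 alone. Prdm1, the gene of a transcription factor of plasma cells and of effector T cells, read 7.42, 7.42, 7.31 and 7.69 with anti-CD3 and 8.49 and 8.20 with anti-ICOS (difference 0.89 ± 0.13, limma adjusted p = 0.0671). Without replicate 4 it rose by 0.97 (adjusted p = 0.000464), and against replicate 4 alone it differed by 0.66 (adjusted p = 0.183). Mzb1, an endoplasmic reticulum protein gene of B cells and plasma cells, differed by 0.48 ± 0.18, and Sdc1, a surface marker of plasma cells, by 0.19 ± 0.12, neither past the test (limma adjusted p = 0.417 and 0.442). Without replicate 4 Mzb1 rose by 0.61 (adjusted p = 0.00315) and Sdc1 differed by 0.24 (adjusted p = 0.117), and against replicate 4 alone the differences were 0.08 and 0.06. Tnfrsf17, which encodes the plasma cell receptor BCMA, lay the other way: it read 6.54, 6.52, 6.70 and 6.52 with anti-CD3 and 6.19 and 6.41 with anti-ICOS, a difference of -0.27 ± 0.094 (adjusted p = 0.417), and it fell by 0.29 without replicate 4 (adjusted p = 0.0482). The B cell receptor genes Cd79a and Cd79b read 12.10 to 12.70 on all 6 arrays and differed by -0.09 and 0.16, by -0.10 and 0.22 without replicate 4 and by -0.06 and -0.02 against it, with no pass. Other B cell genes of the list rose without replicate 4: Ighm by 0.69, Pax5 by 0.37, Ebf1 by 0.43 and Ms4a1 by 0.27 (limma adjusted p = 0.00218, 0.013, 0.0186 and 0.0325). Against replicate 4 alone they differed by 0.07, -0.16, -0.21 and -0.07. The part of B cells, plasma cells and dendritic cells in the values of Ern1, Xbp1 and their targets was not tested.

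**Figure D2:**
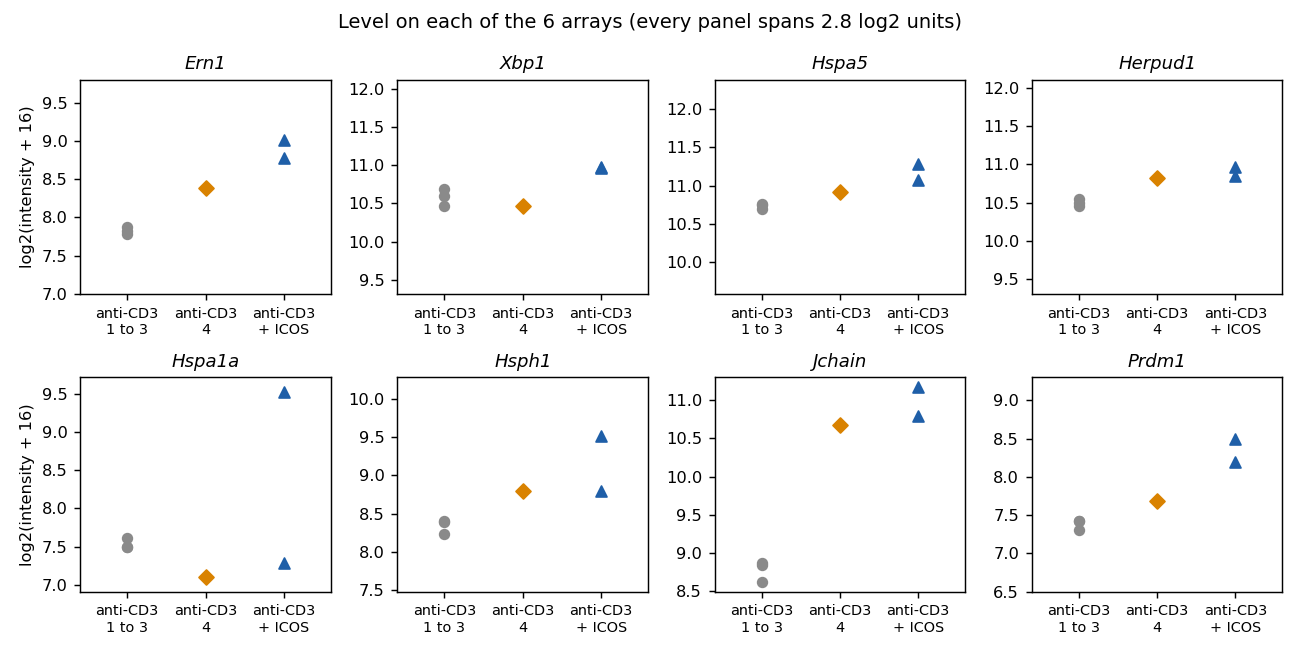
Level of 6 chaperone and unfolded protein response genes and, in the last 2 panels, of Jchain and Prdm1 on each array, as log2(intensity + 16), with anti-CD3 replicate 4 apart from replicates 1 to 3; every panel spans the same range. In Ern1, Hspa5, Herpud1, Jchain and Prdm1 replicate 4 reads between replicates 1 to 3 and the anti-ICOS arrays. Hspa1a is high on 1 anti-ICOS array only.

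Among the large chaperones of the endoplasmic reticulum, Hspa5 and Hyou1 separated the groups and Hsp90b1 did not. Hspa5 encodes BiP, the HSP70 chaperone of this compartment that also holds the stress sensors inactive. It read 10.76, 10.75, 10.69 and 10.92 with anti-CD3 and 11.28 and 11.07 with anti-ICOS, so that both anti-ICOS arrays were above replicate 4, the highest of the anti-CD3 group. The difference was 0.39 ± 0.098 (limma adjusted p = 0.337). Without replicate 4 Hspa5 rose by 0.44 (adjusted p = 0.00645), and against replicate 4 alone it differed by 0.25 (adjusted p = 0.978).

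Hyou1, the gene of an HSP110 that exchanges the nucleotide of BiP, read 8.87, 8.91, 9.07 and 9.28 with anti-CD3 and 9.50 and 9.45 with anti-ICOS. It had the second largest difference of the compartment, 0.44 ± 0.12 (limma adjusted p = 0.394), rose by 0.52 without replicate 4 (adjusted p = 0.00264) and differed by 0.20 against it alone (adjusted p = 1). Hsp90b1, which encodes GRP94, the HSP90 of the compartment, read 11.43, 11.42, 11.29 and 11.20 with anti-CD3 and 11.42 on both anti-ICOS arrays. The anti-ICOS arrays lay at the upper end of the anti-CD3 range, with a difference of 0.08 ± 0.087 (limma adjusted p = 0.605), 0.04 without replicate 4 and 0.21 against it.

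The promoters were read in RefSeq windows (GRCm38.p6) from 250 bases before to 50 after each gene's start, which were found for 28 of the 36 genes, 17 of them in the endoplasmic reticulum group. Both strands were searched for CCAAT, the core letters bound by NF-Y, and for CCACG, the letters associated with ATF6 in stress-response promoters. CCAAT was present in 15 of these 17 genes and in 41.1% of the 27025 genes with a window. CCACG was also present in 15 of 17, and in 35.5% of all genes. A window with both was found for 14 of the 17, against 13.3% of all genes, and for 3 of 8 cytosolic and 1 of 3 mitochondrial genes. Of the 3 endoplasmic reticulum genes without both, Ern1 held CCACG, Pdia3 held CCAAT and Xbp1 held neither. The letters were taken from general knowledge after a first look at these promoters, and CCACG was already associated with stress-response promoters. The shares beside all genes therefore describe the listed genes and are not an independent test of the compartment. A match is a description of letters that are common in promoters, and none of the arrays reads binding.

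The 150 bases before the start of Ern1, Xbp1 and Hspa5 are shown because the first 2 had the smallest p of the list and the last is the best known gene of the response. They run 5′ to 3′ on the strand of each gene, with CCAAT and CCACG on either strand in capitals.
Ern1 (chr11:106487797-106487946, minus strand): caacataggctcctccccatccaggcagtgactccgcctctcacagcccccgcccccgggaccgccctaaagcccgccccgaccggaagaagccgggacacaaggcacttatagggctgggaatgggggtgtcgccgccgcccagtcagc
Xbp1 (chr11:5520491-5520640, plus strand): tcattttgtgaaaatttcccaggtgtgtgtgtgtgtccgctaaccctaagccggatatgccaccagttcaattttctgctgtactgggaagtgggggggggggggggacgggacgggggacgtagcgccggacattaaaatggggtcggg
Hspa5 (chr2:34771940-34772089, plus strand): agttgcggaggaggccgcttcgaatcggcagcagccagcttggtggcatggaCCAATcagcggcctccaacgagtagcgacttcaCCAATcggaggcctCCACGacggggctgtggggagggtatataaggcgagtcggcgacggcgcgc
The stretch of Hspa5 holds 2 matches of CCAAT and 1 of CCACG, and those of Ern1 and Xbp1 hold none.

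Of the J-domain proteins that hand clients to BiP, none passed with all 6 arrays. Dnajb9, which encodes ERdj4, read 8.80, 8.78, 8.73 and 9.28 with anti-CD3 and 9.19 and 9.25 with anti-ICOS. Replicate 4 read higher than both anti-ICOS arrays, and the difference of 0.32 ± 0.16 became 0.45 without replicate 4 (limma adjusted p = 0.00229) and -0.06 against replicate 4 alone. Dnajc3, the gene of p58IPK, a BiP co-chaperone that also inhibits the kinase PERK, had the same order. It read 9.67, 9.80, 9.68 and 10.19 with anti-CD3 and 10.16 and 10.04 with anti-ICOS, with a difference of 0.38 without replicate 4 (limma adjusted p = 0.00789) and -0.09 against it. Dnajb11, which encodes ERdj3, read 8.55 to 8.86 with anti-CD3 and 8.93 and 8.89 with anti-ICOS, a narrow separation with a difference of 0.18 ± 0.098, 0.23 without replicate 4 (limma adjusted p = 0.0704) and 0.05 against it.

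The small folding factors of the compartment had small differences in either direction. Creld2, a gene induced by endoplasmic reticulum stress, read 8.83, 8.90, 8.78 and 8.83 with anti-CD3 and 8.99 and 9.01 with anti-ICOS. All 4 anti-CD3 arrays lay together below both anti-ICOS arrays, and the difference was 0.16 with all arrays, without replicate 4 and against it, without a pass in any (limma adjusted p = 0.421, 0.102 and 1). Manf, whose product is a secreted factor that binds BiP, differed by 0.07 ± 0.073, and Sdf2l1, part of a complex with ERdj3, by -0.11 ± 0.14. Without replicate 4 these were 0.10 and -0.20, and against it -0.02 and 0.17, with no pass. Sdf2l1 read 9.49, 9.54, 9.37 and 9.10 with anti-CD3 and 9.13 and 9.40 with anti-ICOS, so that 1 anti-ICOS array lay within replicates 1 to 3 and the other at the level of replicate 4.

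The lectin chaperones Calr and Canx, which fold glycoproteins through their sugars, had differences of opposite sign. Calr (calreticulin) read 11.36, 11.38, 11.34 and 11.38 with anti-CD3 and 11.50 and 11.49 with anti-ICOS, a small separation of 0.13 ± 0.064 with replicate 4 among the rest of its group. Canx (calnexin) read 11.91, 12.01, 11.79 and 11.63 with anti-CD3 and 11.69 and 11.72 with anti-ICOS, a difference of -0.13 ± 0.11 in which replicate 4 was lowest. Neither passed with or without replicate 4 (limma adjusted p = 0.423 and 0.128 for Calr, 0.543 and 0.0956 for Canx). Against replicate 4 alone both were positive, 0.11 for Calr and 0.08 for Canx.

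The disulfide isomerases also differed among themselves. Pdia4 read 10.83, 10.90, 10.73 and 11.13 with anti-CD3 and 11.23 and 11.24 with anti-ICOS, and Pdia6 read 8.69, 8.63, 8.50 and 8.89 with anti-CD3 and 9.12 and 8.91 with anti-ICOS. In both genes the anti-ICOS arrays exceeded the whole anti-CD3 group, with differences of 0.34 ± 0.12 and 0.34 ± 0.12. Each rose by 0.41 without replicate 4 (limma adjusted p = 0.00554 and 0.0133), and differed by 0.10 and 0.12 against replicate 4 alone. A second, dimmer probe set of Pdia4 gave 0.38 ± 0.12. Pdia3, the isomerase that works with calnexin and calreticulin on glycoproteins, read 11.77, 11.74, 11.60 and 11.54 with anti-CD3 and 11.56 and 11.55 with anti-ICOS, a difference of -0.11 ± 0.088, -0.15 without replicate 4 (limma adjusted p = 0.158) and 0.02 against it.

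Herpud1 and Sel1l, which help carry misfolded proteins out of the compartment for degradation, read higher with anti-ICOS, while Edem1, which recognises misfolded glycoproteins, differed by 0.04 ± 0.071. Herpud1 read 10.45, 10.55, 10.50 and 10.82 with anti-CD3 and 10.85 and 10.96 with anti-ICOS, and Sel1l read 9.47, 9.50, 9.33 and 9.69 with anti-CD3 and 9.76 and 9.78 with anti-ICOS. Replicate 4 lay next to the anti-ICOS arrays in both. Without it they rose by 0.40 and 0.33 (limma adjusted p = 0.00535 and 0.0133), and against it they differed by 0.08 each.

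The endoplasmic reticulum genes therefore fell into sets by the place of replicate 4. In 8 of the 11 separated genes, Ern1, Hspa5, Hyou1, Dnajb11, Pdia4, Pdia6, Herpud1 and Sel1l, replicate 4 lay above replicates 1 to 3 and below both anti-ICOS arrays. In the other 3, Xbp1, Creld2 and Calr, it lay within the range of replicates 1 to 3. Replicate 4 was above replicates 1 to 3 in 13 of the 20 genes, against 34.5% of all genes, and both anti-ICOS arrays were above replicate 4 in 15 of 20 and below it in 4, against 30.8% and 41.5% of all genes. The median of the 20 genes, relative to replicates 1 to 3, was 0.18 in replicate 4 and 0.30 and 0.26 in the anti-ICOS arrays, and the median difference against replicate 4 alone was 0.09.

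**Figure D3:**
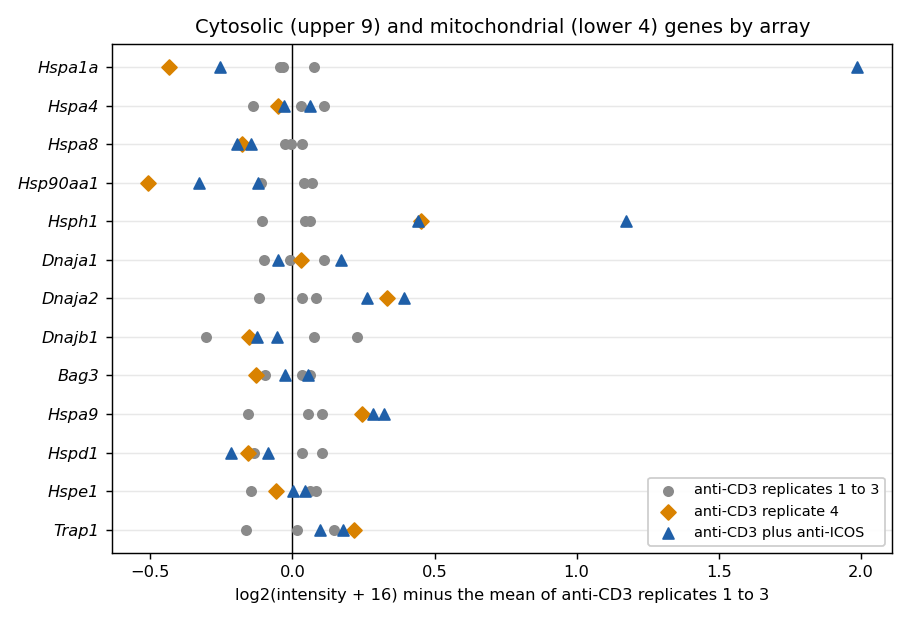
The 9 measured cytosolic and 4 mitochondrial genes on the 6 arrays, as log2(intensity + 16) minus the mean of anti-CD3 replicates 1 to 3 (grey circles), with replicate 4 as a diamond and the 2 anti-ICOS arrays as triangles. Most genes stay near 0, and Hspa1a and Hsph1 show 1 anti-ICOS array far to the right of the other.

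In the cytosol the widest values came from 1 array. Hspa1a, the stress-inducible HSP70, read 7.49, 7.61, 7.50 and 7.10 with anti-CD3, and 9.52 on anti-ICOS replicate 1 but 7.28 on anti-ICOS replicate 2. Its difference of 0.97 ± 0.53 (limma adjusted p = 0.430) rests on that array, since without anti-ICOS replicate 1 it was -0.15 and without anti-ICOS replicate 2 it was 2.09 (adjusted p = 0.0393). Hspa1a and Hspa1b are near-identical copies, so the probe signal may come from either gene, and a probe set annotated to both was not used. Hsph1, the cytosolic HSP110 that recycles HSP70, read 8.41, 8.39, 8.24 and 8.80 with anti-CD3 and 9.52 and 8.79 with anti-ICOS. Anti-ICOS replicate 1 was again the highest, and anti-ICOS replicate 2 read as replicate 4 did. The difference was 0.70 ± 0.22 (limma adjusted p = 0.414), with a rise of 0.81 ± 0.18 without replicate 4 (adjusted p = 0.015) and a difference of 0.36 ± 0.25 against it (adjusted p = 1).

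The other large chaperones of the cytosol did not pass in any of the 3 comparisons. Hspa8, the HSP70 present in all cells, read 13.51, 13.55, 13.49 and 13.34 with anti-CD3 and 13.37 and 13.32 with anti-ICOS, a difference of -0.13 ± 0.082, and its other 2 probe sets gave -0.18 and -0.17. Hsp90aa1, the inducible cytosolic HSP90, read 11.24, 11.21, 11.06 and 10.66 with anti-CD3 and 11.05 and 10.84 with anti-ICOS. Replicate 4 was the lowest array, and the difference was -0.10 ± 0.17 with all arrays, -0.23 without replicate 4 (limma adjusted p = 0.0939) and 0.29 against replicate 4 alone. Its other 2 probe sets gave -0.05 and 0.25, so its direction depends on the probe set. Hspa4, another HSP110, differed by 0.03 ± 0.090.

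Among the co-chaperones of HSP70, Dnaja2 read 9.84, 9.89, 9.69 and 10.14 with anti-CD3 and 10.20 and 10.07 with anti-ICOS. Replicate 4 lay between the anti-ICOS arrays, and Dnaja2 rose by 0.33 without it (limma adjusted p = 0.022) and differed by 0.00 against it. Dnaja1 differed by 0.05 ± 0.095, with 0.44 ± 0.19 from its dimmer probe set. Dnajb1 differed by -0.05 ± 0.15 and Bag3, a nucleotide exchange factor that links HSP70 to autophagy, by 0.05 ± 0.084.

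Of the mitochondrial chaperones, Hspa9, the HSP70 called mortalin that pulls proteins into the matrix, read 10.24, 10.29, 10.03 and 10.43 with anti-CD3 and 10.51 and 10.47 with anti-ICOS. It separated the groups with a difference of 0.24 ± 0.11 (limma adjusted p = 0.423) and rose by 0.30 without replicate 4 (adjusted p = 0.0348), with a difference of 0.06 against it. The chaperonin genes Hspd1 and Hspe1, whose products form 1 folding chamber, differed by -0.11 ± 0.10 and 0.04 ± 0.089. Hspd1 read 10.05 to 10.37 and Hspe1 11.34 to 11.57 over the 6 arrays, and their other probe sets gave -0.03 and 0.10. Trap1, the mitochondrial HSP90, differed by 0.08 ± 0.11.

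**Figure D4:**
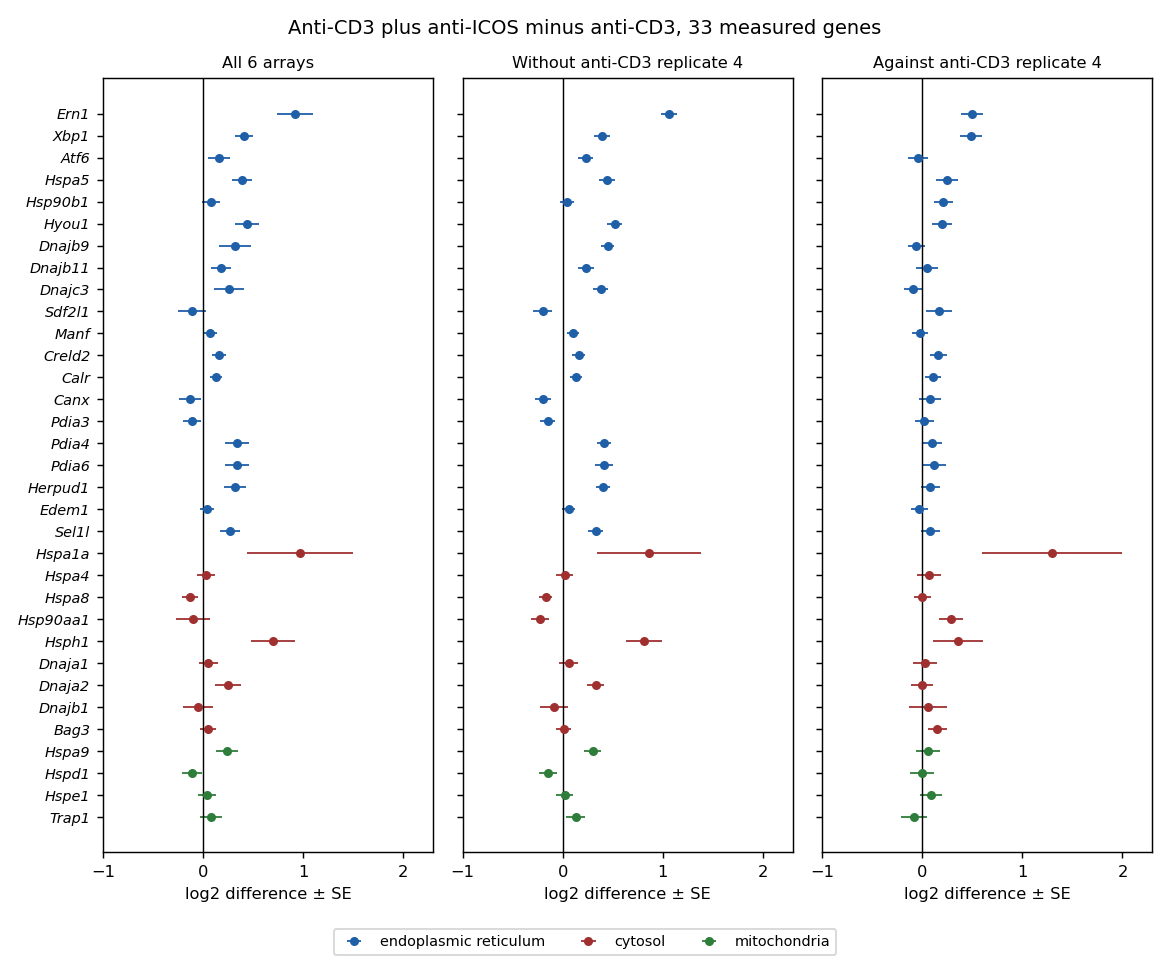
Log2 difference with its SE from limma for the 33 measured genes, from left to right with all 6 arrays, without anti-CD3 replicate 4 and against anti-CD3 replicate 4 alone, coloured by compartment. Ern1 and Xbp1 stay at 0.50 and 0.49 in the right panel, while Dnajb9 and Dnajc3 go from 0.45 and 0.38 in the middle panel to -0.06 and -0.09.

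Other genes of the same systems were less one-sided in the endoplasmic reticulum. The further list of that compartment held 52 measured genes (translocation, oxidation, glycoprotein checks, degradation and the PERK branch). Of these, 30 had a positive difference, beside 42.3% of all genes, with a median of 0.06. The anti-ICOS arrays were above the whole anti-CD3 group in 6 and under it in 3 of the 52, beside 8.51% and 14.7% of all genes. No gene of the further lists passed with all 6 arrays (0.271% of all genes). Without replicate 4, 12 rose and 4 fell of the 52, beside 17.1% and 12.7% of all genes. The 2 of smallest p were Creb3l2, a transcription factor of the secretory pathway, at 0.27 ± 0.096, and Sec11c, a signal peptidase subunit, at 0.26 ± 0.095. In the PERK branch, the sensor gene Eif2ak3 differed by 0.11 ± 0.11, Atf4 by 0.24 ± 0.12 and its target Ddit3 (CHOP) by 0.22 ± 0.11, with adjusted p of 0.606, 0.423 and 0.424 (limma).

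Of 36 further cytosolic genes 27 had a positive difference, beside 42.3% of all genes, with a median of 0.13. Both anti-ICOS arrays were above the whole anti-CD3 group in 7 and under it in 1 of the 36, beside 8.51% and 14.7% of all genes. Without replicate 4, 14 of the 36 rose and 2 fell, beside 17.1% and 12.7% of all genes. On the further lists the cytosolic median was thus above the endoplasmic reticulum median of 0.06. Among the 33 genes the order was the reverse, with medians of 0.05 and 0.22. Hsf2, a second heat shock factor, read 7.67, 7.75, 7.41 and 7.98 with anti-CD3 and 8.44 and 8.37 with anti-ICOS, a difference of 0.70 ± 0.15 (limma adjusted p = 0.214) and a rise of 0.79 without replicate 4 (adjusted p = 0.00157). Ptges3, the HSP90 co-chaperone p23, differed by 0.35 ± 0.11. Against replicate 4 alone Hsf2 differed by 0.43 and Ptges3 by 0.22. Of 16 further mitochondrial genes 12 had a positive difference, and 5 of the 16 rose and 1 fell without replicate 4, beside the same shares. The exchange factor gene Grpel2 rose by 0.61 and the matrix protease gene Lonp1 fell by 0.62 in that comparison (limma adjusted p = 0.000959 and 0.00176). Replicate 4 read with the anti-ICOS arrays in both, so that against it alone the differences were 0.05 and -0.11.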

How the data were processed

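The values deposited by the authors are probe set intensities on a linear scale, 7.23 to 22176, with array medians of 109 to 114. The submitters' processing notes name MAS5 alone; how background, probe summary and normalization were handled is not given in the sources used here. Had the arrays been set to equal levels, a change shared by most genes would be hidden. Of 34760 probe sets, 21640 carried 1 symbol in the platform annotation, 1321 several and 11799 none; the first were used, with the brightest per gene. Arrays came from 1 ug of total RNA, per the labels' protocols.

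All 19937 genes were fitted with limma 3.58.1 in R 4.3.3 (lmFit, eBayes, 4 residual degrees of freedom, no block, no expression filter), with two-sided p adjusted over all genes. The fit was tested on simulated data with independent noise for each gene and no array set apart. That test cannot show how the fit handles an array such as replicate 4. Fits that leave 1 array in a group, such as that against anti-CD3 replicate 4, assume that it varies like the others. The 36 genes and the further lists were chosen with earlier results of these data known. Named from the further lists are the 2 genes of smallest p in each and Atf4, Ddit3 and Eif2ak3. Marker genes of plasma cells and dendritic cells were named after their values were seen. Older list symbols were updated through RefSeq synonyms. Alternatives were array quality weights, median centring or quantile normalization, offsets of 1 and 64, removal of the dimmest 40% of genes, a prior that was trended and robust, every probe set or the mean per gene, leaving out each array, a block for replicate number, and replicate 4 as the only reference. Plots used matplotlib 3.10.9 in Python 3.11.15. The letters of the 2 promoter motifs were taken from general knowledge and not from the files, after a first look at these promoters.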

Additional observations from a re-analysis of the deposited data

Results flagged for a closer look

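In the anti-CD3 group of 4 arrays, 1 array lay far from the other 3 in 2 of the 33 genes. The same held in 1 of 9 named genes of the further lists. Chance alone sets about 1 in 20 such groups apart, so 2 of 33 is near that rate. The share over all genes was not counted. The rate also takes the 4 arrays as alike, while replicate 4 lay above replicates 1 to 3 in 34.5% and below in 42.5% of all genes. For Ern1 anti-CD3 replicate 4 read 8.39 and for Dnajb9 it read 9.28, both above the other anti-CD3 arrays. For Atf4 anti-CD3 replicate 3 read 7.89, below the others.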

How the results depend on the processing

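Of the 33 genes, the number past the threshold was 0 with all 6 arrays and also with quantile normalization, median centring, the filter on dim genes, the trended prior, the mean of probe sets, every probe set, either offset and replicate 4 as the only reference. It was 22 with array quality weights (17 higher, 5 lower; 47.2% of all genes passed) and 17 with the replicate number as a block (13 higher, 4 lower; 32.9% of all genes). The deviations of same-numbered arrays from their group means correlated at -0.04 and 0.10. With 2 anti-ICOS arrays the deviations of 1 mirror those of the other. These values therefore cannot show whether replicate numbers pair the arrays, and the block is given here only. With each array left out the number was 0 to 13, with 13 without anti-CD3 replicate 4 and 1 (Hspa1a) without anti-ICOS replicate 2.

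Over all genes 54 were higher and 0 lower, 4543 and 4870 with weights, 3389 and 3162 with the replicate block, 28 higher with an offset of 64, 35 against replicate 4 alone, and 16 to 3404 higher and 0 to 2526 lower with an array left out. Of the further lists (cytosolic, mitochondrial, endoplasmic reticulum) 21, 11 and 24 genes passed with weights, 16, 8 and 20 with the replicate block, and up to 16, 6 and 16 with an array left out, against 0 otherwise. The endoplasmic reticulum median of 0.22 was 0.18 to 0.28 with an array left out, 0.15 with quantile normalization and 0.09 against replicate 4 alone. The cytosolic median of 0.05 was -0.02 with quantile normalization and -0.06 to 0.08 with an array left out. The mitochondrial median of 0.06 was 0.02 with quantile normalization, -0.00 with the replicate block and 0.00 (without anti-CD3 replicate 3) to 0.09 with an array left out.

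Single genes changed sign, none of them past the test with all arrays. With quantile normalization Hspa4 was at -0.02, Bag3 at -0.06 and Manf at -0.03; with weights Hspa4 at -0.02 and Hspe1 at -0.04; with the replicate block Hspa4 at -0.06, Hspe1 at -0.05 and Hsp90b1 at -0.01; with the mean of probe sets Hsp90aa1 at 0.03. Against replicate 4 alone Hsp90aa1 was at 0.29, Dnajb1 0.06, Trap1 -0.08, Atf6 -0.04, Dnajb9 -0.06, Dnajc3 -0.09, Sdf2l1 0.17, Manf -0.02, Canx 0.08, Pdia3 0.02 and Edem1 -0.03. With an array left out the ranges were -0.14 to 0.04 for Dnajb1, -0.02 to 0.07 for Hspa4, -0.01 to 0.07 for Hspe1, -0.15 to 2.09 for Hspa1a, -0.06 to 0.16 for Dnaja1, -0.24 to 0.03 for Sdf2l1 and -0.23 to 0.01 for Hsp90aa1. The cause of these changes was not tested.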
